A study of Mus musculus with 34 samples.

Results

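Genes of the proteasome were described in left ventricle (LV) tissue of outbred CFW mice before and after myocardial infarction (MI). They were taken by symbol: Psma, Psmb, Psmc, Psmd or Psme followed by a number, with the inducible subunits Psmb8 and Psmb9 left out. This gave 42 of the 14552 genes in the first deposited table and 42 of the 17406 genes in the second. A mean of at least 1 CPM (reads scaled to library size by the authors) was reached by 41 in each table, 15 core genes (Psma and Psmb) and 26 regulatory genes (Psmc, Psmd and Psme). Psma8, the testis form of an alpha subunit, did not reach it, at 0.367 CPM in the first table and 0.510 CPM in the second. The lowest gene that did was Psmc3ip, at 1.06 and 1.61 CPM, and it matches by name only, as its product acts in meiotic recombination. The thymic subunit Psmb11 was not analysed here.

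The first table holds 10 libraries of uninjected hearts, from 3 controls and from mice taken 4 h (n = 3) or 24 h (n = 4) after MI. The LAD, the coronary artery that feeds the anterior wall, had been tied off permanently, and the sampled piece was the ischaemic area or its equivalent. The controls are titled sham and the paper describes them as sham operated, although another label field gives them as not operated. The second table holds 24 libraries. Its 2 sham mice carry a time of 4 h, and its other mice received modified mRNA (modRNA) in the border zone right after ligation, either AC (a name the labels do not spell out) or Luc, which encodes luciferase. AC and Luc hearts numbered 4 and 4 at 4 h, 3 and 3 at 24 h, and 4 and 4 at 48 h. No mouse age is given in the labels. Titles of the 24 h and 48 h libraries follow other patterns than those of the sham and 4 h libraries. Time and library set thus cannot be told apart when Luc at 24 or 48 h is set against sham. In every comparison of Luc with sham, at 4 h too, infarction and modRNA injection cannot be told apart either.

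The proteasome is the protease that degrades proteins tagged with ubiquitin. Its barrel-shaped core has outer rings of alpha subunits and inner rings of beta subunits, among which Psmb5, Psmb6 and Psmb7 carry the cutting sites and Psmb10 can take the place of Psmb7 in cells exposed to interferon. The regulatory particle caps the barrel, with a base that holds a ring of ATPases (Psmc1 to Psmc6) and unfolds substrates, and a lid that removes ubiquitin. Alternative caps are made from Psme1 with Psme2, from Psme3, or from Psme4. In heart muscle the proteasome clears damaged and sarcomeric proteins.

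If the lowest value in each library of the first table stood for 1 read, these held 12553519 to 18952669 reads. This is a rough figure, since not all low values were multiples of the lowest, and the paper gives a higher mean number of reads per sample. The depth of the second table is unknown. Rn45s, a ribosomal RNA precursor, was at 6881 CPM in sham library H and 40038 CPM in sham library D of the first table. It was at 8.67 to 88.1 CPM in the second table. Its part in shares of total CPM, and in differences between the tables, was not tested. Within the 24 h post-MI group, library G stood apart, with a Pearson r of 0.959 at the lowest against the other 24 h libraries over all genes. In the second table the sham libraries differed in these genes, with summed levels of 3678 and 2763 CPM, and AC 4 h libraries 1 and 2 stood at 4437 and 2549 CPM. Luc 48 h libraries fell into pairs over all genes, 1 with 3 and 2 with 4 (r = 0.984 in each), with r from 0.945 to 0.969 between the pairs. At 24 h post-MI all 11 markers of neutrophils and monocytes were called higher than in sham, and their summed level was 482 to 2297 CPM against 5.49 to 6.44 CPM. Over the same libraries 5 of 10 cardiomyocyte markers were called lower, and their sum was 22173 to 38135 CPM against 50381 to 53750 CPM. Of all genes, 35.6% were called higher and 30.3% lower in this comparison. At 4 h the sums were 17.9 to 52.2 CPM and 49650 to 53906 CPM. No gene at all was listed at 0 in the first table, so this says nothing of whether a marker was detected. The marker Il1r2 was at 0.0325 and 0.0403 CPM in sham libraries I and H, the lowest values of those libraries. In such bulk tissue, fewer cells of a type and less RNA per cell cannot be told apart, and the part of these shifts in the results was not tested.

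In sham LV the levels per kilobase of transcript (the principal transcript in GENCODE M21) had a median of 49.3 CPM per kb over the 14 constitutive ring genes and 35.0 CPM per kb over the 17 base and lid genes. Where several transcripts of a gene shared the best principal tag, the longest was used. Alpha genes lay between 10.5 CPM per kb for Psma3 and 59.2 CPM per kb for Psma7. The Psma3 value rests on a length of 2846 bases, against 1239 for Psma5. Before division by length, Psma3 was at 27.9 to 32.0 CPM in sham and Psma5 lower, at 18.9 to 22.9 CPM. Constitutive beta genes lay between 34.0 (Psmb1) and 84.9 CPM per kb (Psmb6). The ATPases of the base ran from 29.3 (Psmc6) to 67.2 CPM per kb (Psmc3), and the lid from 13.7 (Psmd11) to 44.8 CPM per kb (Psmd7). The assembly factors Psmd5, Psmd9 and Psmd10, which help to build the base and are not part of the finished particle, stood far lower, at 2.85 to 4.15 CPM per kb. Among the activators the range was 8.82 (Psme2) to 58.0 CPM per kb (Psme1).

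The Psme2 level is uncertain because Psme2b, on chromosome 11, is a near copy of Psme2, on chromosome 14. Their coding sequences, each of 720 bases, differ at 5 positions (99.3% identical), and 467 of the 671 windows of 50 bases in Psme2 are also in Psme2b. Reads of that length from a shared window could be given to either gene, and Psme2b also shares 262 bases with 9930111J21Rik1 on the same strand. A stretch of 30 coding bases (positions 514 to 543, GENCODE M21 transcripts) with 2 of the differences in capitals shows how alike they are.
Psme2: ggggaCgctgtagccaaggcttccaaggaC
Psme2b: ggggaTgctgtagccaaggcttccaaggaT
The sum of the pair is therefore given beside the 24 h results of each.

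At 4 h post-MI no proteasome gene passed the test against sham. With limma on log2(CPM + 1) and Benjamini-Hochberg adjustment over the 12487 genes tested, 0 of 41 were called at adjusted p under 0.05, while 8 had an unadjusted p under 0.05, and over all genes these shares were 2.37% and 16.5%. The estimates leaned upward: 36 of 41 were above 0, with a median log2 fold change of 0.13 against -0.03 over all genes. Groups did not overlap and stood higher at 4 h for 17 of 41 genes, 10 of 15 core and 7 of 26 regulatory, while 10.9% of all genes did so. Limma with array weights, which lets libraries differ in precision, called 9 genes of the set, all higher and 8 of them core, with 8.25% of all genes called higher.

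The highest estimates at 4 h were those of alpha subunits. Psma5 was at 25.5, 26.9 and 24.1 CPM at 4 h and at 22.9, 19.6 and 18.9 CPM in sham. Every 4 h library was above every sham library, with a log2 difference of 0.31 (SE 0.11, adjusted p = 0.184, limma). Psma6 differed by 0.28 (SE 0.10, adjusted p = 0.197) and did not overlap, and Psma7 by 0.34 (SE 0.12, adjusted p = 0.210) with overlap, as sham library D at 64.4 CPM was above the 4 h library D at 61.7 CPM. The largest regulatory estimates were those of Psmc4 (0.20, SE 0.09, adjusted p = 0.281), Psmd14 (0.19, SE 0.12, adjusted p = 0.451) and Psmd10 (0.19, SE 0.13, adjusted p = 0.527). Psmb10 and Psme3 had estimates of -0.06 (SE 0.16, adjusted p = 0.905) and -0.04 (SE 0.09, adjusted p = 0.879), with overlapping groups. The sign of the Psme3 estimate turned with median-ratio scaling of the libraries. The lowest estimates of the core beside Psmb10 were those of Psma1 (0.16) and Psmb5 (0.17), and Psmd5 and Psme4 stood at -0.02 and -0.01 (adjusted p = 0.965 and 0.993).

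At 24 h post-MI, proteasome genes were called higher than sham across the core, the base and the lid. Of 41 genes, 34 were called, 33 higher and 1 lower, where 66% of all genes tested were called, 35.6% higher and 30.3% lower. The median log2 fold change of the 41 genes was 0.51 and that of all genes 0.04. All 24 h libraries stood above all sham libraries for 35.3% of all genes and below them for 28.7%. Higher calls covered all 7 alpha genes, all 7 constitutive beta genes, 5 of 6 ATPases, 1 of 3 other base genes, all 8 lid genes, 2 of 3 assembly factors and 3 of 5 activators. The summed level of all 42 matching genes was 2163 to 2394 CPM in sham, 2413 to 2560 CPM at 4 h and 2948 to 3368 CPM at 24 h, with no overlap between these groups. As a share of all deposited CPM this was 0.375 to 0.378% in sham, 0.397 to 0.410% at 4 h and 0.489 to 0.554% at 24 h.

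**Figure D1:**
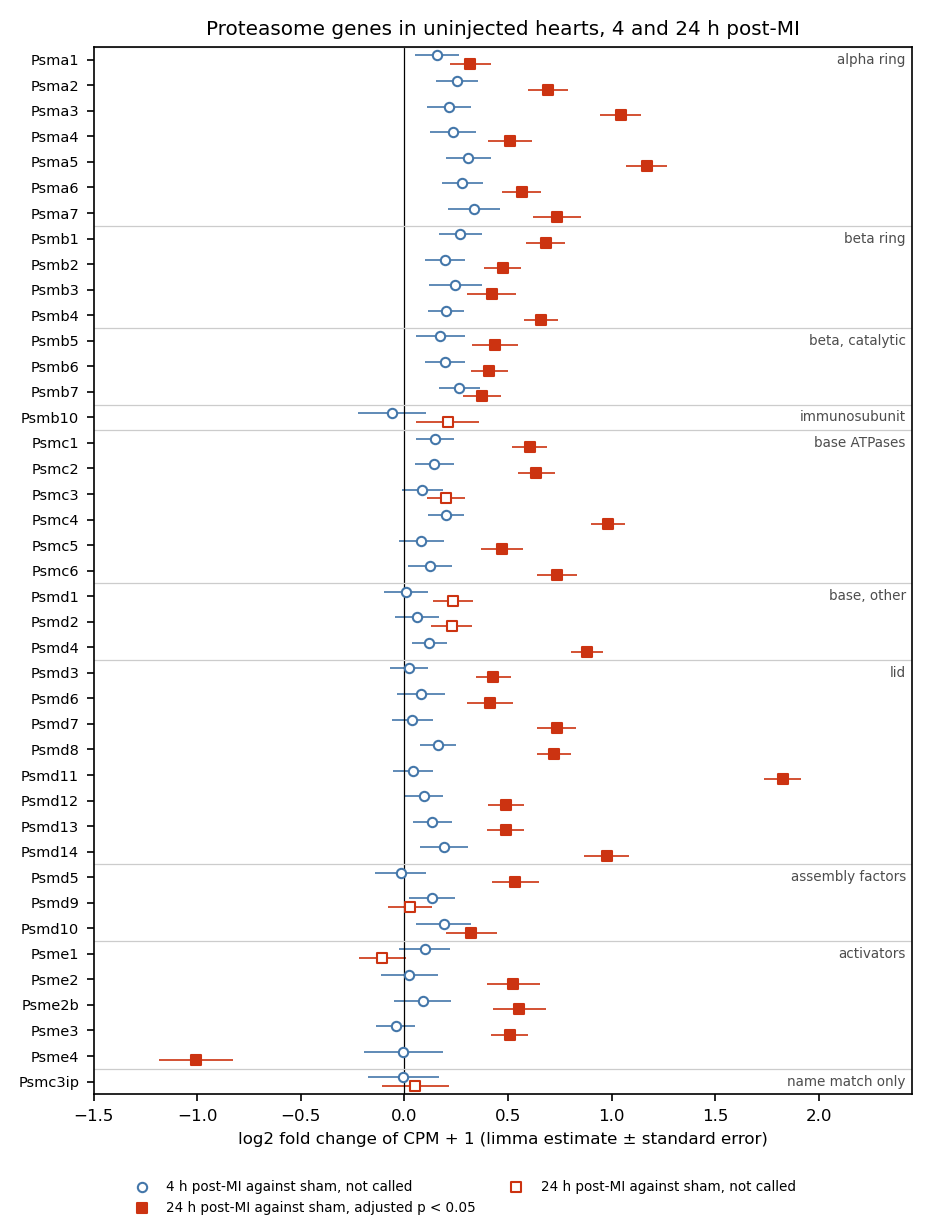
Log2 fold changes of CPM + 1 (horizontal axis) for the 41 proteasome genes (rows, grouped by role) at 4 h (circles) and 24 h post-MI (squares) against sham, with limma standard errors as bars and filled symbols for adjusted p under 0.05. No 4 h estimate is filled, 33 of the 24 h squares are filled to the right of 0, Psmd11 is farthest right at 1.83 and Psme4 farthest left at -1.005.

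Psmd11, a lid subunit that links lid, base and core (chr11:80428615-80472134, plus strand, mm10, coordinates of the deposited table), had the largest change. Its level was 134, 139.8, 132 and 159 CPM at 24 h, 40.4, 40.4 and 39.6 CPM at 4 h, and 40.5, 39.7 and 36.8 CPM in sham. The 4 h and sham libraries overlapped, and all 24 h libraries lay far above both. The ratio of the 24 h mean to the sham mean was 3.62 ± 0.361 (SD propagated from both group SDs, n = 4 and 3). Every fold or ratio below is given with an SD of this kind. The log2 fold change was 1.83 (SE 0.09, limma adjusted p = 9.1e-08). Against 4 h the log2 difference was 1.78 (SE 0.09, adjusted p = 2.8e-07).

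Among alpha subunits, which form the outer rings and the gate, Psma5 and Psma3 moved most. Psma5 was at 43.6, 47.4, 45.3 and 52.4 CPM at 24 h, above the sham and 4 h values given, with a log2 fold change over sham of 1.17 (SE 0.10, adjusted p = 2.5e-06). Psma3 was at 62.2, 62.2, 56.2 and 71.5 CPM at 24 h, 34.7, 36.7 and 33.3 CPM at 4 h, and 32.0, 30.1 and 27.9 CPM in sham. The 3 groups of Psma3 did not overlap, and the 24 h to sham change was 1.04 (SE 0.10, adjusted p = 4.6e-06). Psma3 shares 4264 bases with 3110056K07Rik on the opposite strand, a gene at a mean of 2.23 CPM, and whether the counting used strand is not given in the sources used here. Psma7 changed by 0.74 (SE 0.12, adjusted p = 1.9e-04). The lowest alpha estimate was that of Psma1 at 0.32 (SE 0.10, adjusted p = 0.0139), whose call was lost without sham library H (adjusted p = 0.0599) or I (adjusted p = 0.0525).

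The 3 catalytic beta genes all rose, with estimates between 0.38 and 0.44. Psmb5, which carries the chymotrypsin-like site (chr14:54614120-54617996, minus strand), was at 50.8, 51.1, 61.2 and 61.3 CPM at 24 h and at 46.8, 40.7 and 36.1 CPM in sham. Its groups did not overlap, and the log2 fold change was 0.44 (SE 0.11, adjusted p = 0.0044). Psmb6, with the caspase-like site, changed by 0.41 (SE 0.09, adjusted p = 0.0019), and Psmb7, with the trypsin-like site, by 0.38 (SE 0.09, adjusted p = 0.0038). Psmb10, the inducible counterpart of Psmb7, was at 28.3, 38.1, 25.3 and 23.3 CPM at 24 h, 23.8, 22.8 and 23.2 CPM at 4 h, and 21.01, 24.6 and 27.8 CPM in sham. These groups overlapped, with a difference of 0.21 (SE 0.15, adjusted p = 0.249), and Psmb10 was the sole core gene not called. The inducible subunits left out by the rule were called in 1 of 2 cases, Psmb8 at 1.28 (SE 0.27, adjusted p = 0.0015) and Psmb9, not called, at 0.64 (SE 0.29, adjusted p = 0.0725).

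In the base and lid, the next highest estimates after Psmd11 were those of Psmc4 and Psmd14. Psmc4, an ATPase, was at 84.8, 87.5, 89.6 and 95.4 CPM at 24 h and at 47.6, 44.4 and 42.0 CPM in sham, a log2 fold change of 0.98 (SE 0.08, adjusted p = 2.1e-06). Psmd14, the lid enzyme that cuts ubiquitin off substrates, was at 57.7, 56.0, 56.6 and 72.4 CPM at 24 h and at 33.3, 29.1 and 28.3 CPM in sham. Library H was the high one at 24 h, no libraries overlapped, and the change was 0.98 (SE 0.11, adjusted p = 1.6e-05). Psmd4, a ubiquitin receptor of the base, was at 82.1, 86.4, 84.8 and 93.3 CPM against 48.1, 46.3 and 45.3 CPM in sham, a change of 0.88 (SE 0.08, adjusted p = 3.3e-06). Psmd1 and Psmd2 encode the large scaffolds of the base. Psmd1 had an estimate of 0.23 (SE 0.10, adjusted p = 0.0530) and Psmd2 of 0.23 (SE 0.10, adjusted p = 0.0594), and neither was called, although the Psmd2 groups did not overlap. The ATPase Psmc3 was not called either, at 0.20 (SE 0.09, adjusted p = 0.0731). These 3 were singled out after their values were seen, as the uncalled genes of the base, and all 3 were called without 24 h library C (adjusted p = 0.0151, 0.0267 and 0.0254 for Psmd1, Psmd2 and Psmc3).

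The assembly factors did not move as a set. Psmd5 rose by 0.54 (SE 0.12, adjusted p = 0.0016) and Psmd10 by 0.32 (SE 0.12, adjusted p = 0.0381), a call lost with median-ratio or equal-total scaling (adjusted p = 0.0700 and 0.0520) and without any of 4 libraries (24 h C and H, sham H and I, adjusted p from 0.0770 to 0.131). Psmd9 was at 0.03 (SE 0.10, adjusted p = 0.832), an estimate whose sign turned with median-ratio scaling (-0.018). Psmc3ip was at 0.05 (SE 0.16, adjusted p = 0.785), which also turned under array weights.

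Activators went in different directions at 24 h. Psme4, a large single-chain cap (chr11:30771775-30880362, plus strand), was at 82.1, 105, 158 and 102.5 CPM at 24 h, 208, 233 and 214 CPM at 4 h, and 245, 203 and 210.0 CPM in sham. Every 24 h library was below every 4 h and sham library, and library G, at 158 CPM, was the highest of the 24 h group. The fold over sham was 0.509 ± 0.156 (SD, n = 4 and 3), a log2 fold change of -1.005 (SE 0.18, adjusted p = 4.6e-04), and it was -1.18 without library G. Library G also had the highest cardiomyocyte marker sum of its group, 38135 CPM against 22173 to 28281 CPM, and the lowest neutrophil and monocyte sum, 482 CPM against 1121 to 2297 CPM. The part of these shifts in the Psme4 result was not tested.

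Psme1, whose product pairs with that of Psme2, was at 58.1, 74.1, 54.5 and 54.5 CPM at 24 h and at 63.0, 68.0 and 62.6 CPM in sham. The groups overlapped, with a difference of -0.11 (SE 0.11, adjusted p = 0.430). Psme2 and Psme2b rose by 0.53 (SE 0.13, adjusted p = 0.0037) and 0.55 (SE 0.13, adjusted p = 0.0024). Their sum averaged 59.9 CPM at 24 h and 39.97 CPM in sham, a ratio of 1.498 ± 0.251 (SD, n = 4 and 3) that does not depend on how reads were split between them. Psme3, the nuclear cap, rose by 0.51 (SE 0.09, adjusted p = 3.9e-04).

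**Figure D2:**
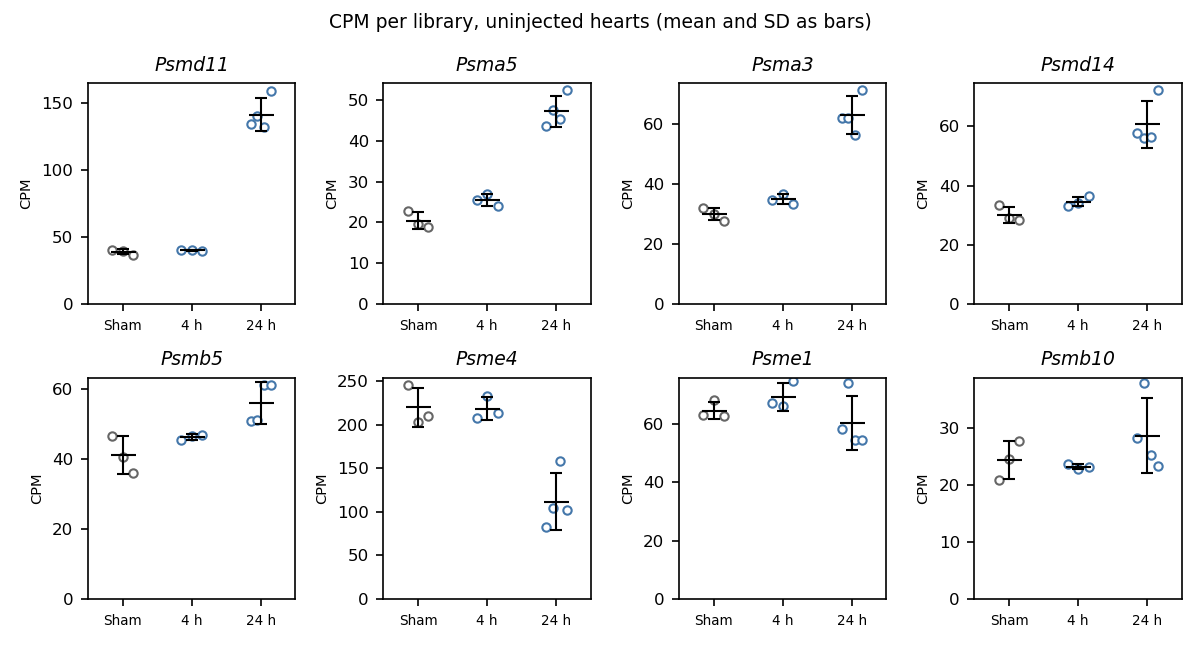
CPM (vertical axis, from 0) of 8 proteasome genes in each uninjected library (points) of sham, 4 h and 24 h post-MI, with the group mean and SD as bars. Psmd11 is at 36.8 to 40.5 CPM in sham and 4 h libraries and at 132 to 159 CPM at 24 h, while Psme4 falls below 160 CPM in all 24 h libraries and Psme1 and Psmb10 overlap between groups.

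Between 4 and 24 h, 28 of 41 genes were called, 27 higher and 1 lower, where 63.9% of all genes were called, 37.2% higher and 26.7% lower. Core genes were called higher in 9 of 15 cases and regulatory genes in 18 of 26, the lid in 8 of 8. Psma5 differed by 0.86 (SE 0.10, adjusted p = 2.5e-05), Psma3 by 0.83 (SE 0.10, adjusted p = 3.0e-05) and Psme4 by -0.999 (SE 0.18, adjusted p = 5.3e-04). Psme1 (-0.20, SE 0.11, adjusted p = 0.139) and Psmb10 (0.27, SE 0.15, adjusted p = 0.146) were not called. Without 24 h library D, its highest 24 h value, Psme1 was called lower (-0.31, adjusted p = 0.0145). The comparisons of 24 h with sham and with 4 h share the 24 h libraries.

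Core and regulatory genes were set against each other by the median log2 ratio of each class to the sham mean, with no test, since genes are not replicates. At 4 h the core median was above the regulatory one in all 3 libraries, by 0.120 to 0.144, while in sham libraries the difference ran from -0.065 to 0.068. At 24 h it ran from -0.067 to 0.151, negative in library G alone. The medians of the fitted changes were 0.23 for core and 0.09 for regulatory genes at 4 h, and 0.51 and 0.50 at 24 h. Sham values lie around 0 in each table because the ratio is to the sham mean. The 2 sham libraries of the second table therefore mirror each other, at 0.111 and -0.111. Among its other libraries the core median was below the regulatory one in AC 48 h library 2 alone. The differences in Luc 24 h libraries, 0.058 to 0.141, were of about the size of these sham values.

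**Figure D3:**
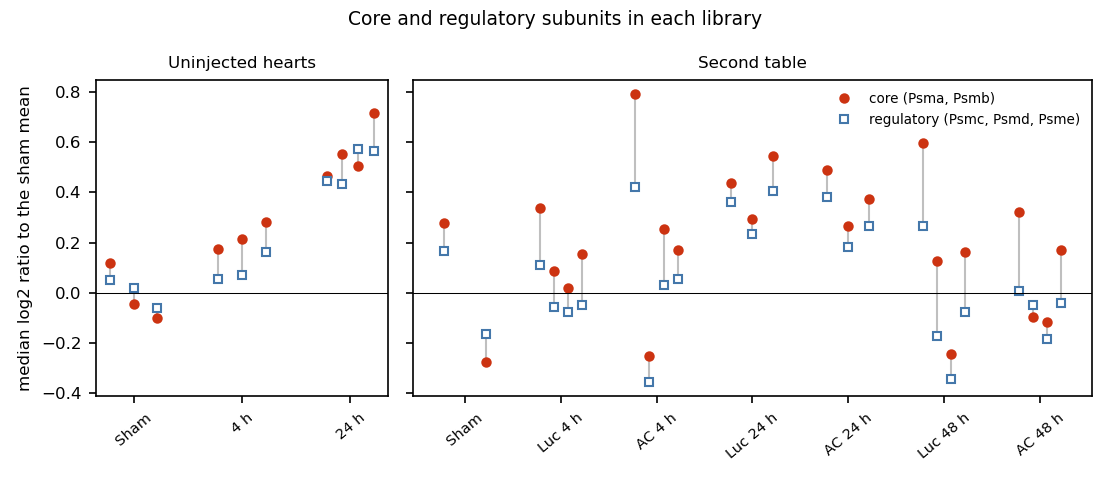
Median log2 ratio to the sham mean of its own table (vertical axis) for core genes (filled circles) and regulatory genes (open squares) in each library, joined by a grey line, for the first table (left) and the second (right). In the 3 uninjected 4 h libraries the core circle is 0.120 to 0.144 above the square. The 2 sham libraries on the right mirror each other about 0, as the ratio is to their own mean.

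Other genes of the pathway, in lists set beside the proteasome genes, were mixed at 24 h post-MI, where 35.6% of all genes were called higher and 30.3% lower. Higher calls in the lists of assembly factors, regulators and shuttle factors below were near the first of these shares. Ubiquitin genes and activating enzymes were called higher in 5 of 6 cases, among them Ubb at 1.54 (SE 0.14, adjusted p = 3.0e-06) and Rps27a, which encodes ubiquitin fused to a ribosomal protein, at 1.48 (SE 0.13, adjusted p = 2.4e-06). Of 11 assembly factors and bound partners, 5 were called higher and 1 lower. Adrm1, a ubiquitin receptor of the base, rose by 0.84 (SE 0.08, adjusted p = 5.8e-06) and Pomp, which matures the core, by 0.45 (SE 0.09, adjusted p = 0.0012). Of 5 regulators of proteasome genes, 2 were called higher, Nfe2l2 at 0.88 (SE 0.17, adjusted p = 8.2e-04) and the protease Ddi2 at 0.57 (SE 0.15, adjusted p = 0.0048). Nfe2l1, a transcription factor known for inducing proteasome genes, was at -0.19 (SE 0.14, adjusted p = 0.245). Of 5 shuttle factors, which carry tagged proteins, 2 were called higher and 1 lower. Both muscle ubiquitin ligases fell, Fbxo32 by 2.47 (SE 0.19, adjusted p = 1.2e-06) and Trim63 by 0.93 (SE 0.10, adjusted p = 9.8e-06) on the log2 scale.

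In the second table, Luc hearts at 4 h did not differ from sham in any proteasome gene by the test. By limma 0 of 41 were called, 2 had an unadjusted p under 0.05, and over the 12555 genes tested these shares were 1.55% and 13.6%. Psme4 was the nearest, at 152, 163, 171 and 148 CPM against 259 and 228 CPM in sham. Its groups did not overlap, and 15.3% of all genes stood lower than sham without overlap. The log2 difference of Psme4 was -0.62 (SE 0.19, adjusted p = 0.116). Psme4 was called when the sham and Luc 4 h libraries were fitted alone (adjusted p = 0.0202) or when Luc 48 h library 3 was left out (adjusted p = 0.0487). The other was Psmd5, at -0.33 (SE 0.14, adjusted p = 0.279).

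At 24 h, Luc hearts differed from sham in 9 of 41 proteasome genes, 8 higher and 1 lower, where 34.1% of all genes were called, 25.3% higher and 8.79% lower. The sham group has 2 libraries, and leaving out a single library left 6 to 12 genes called, 6 without sham library 1 and 12 without AC 4 h library 2. The median of all genes was 0.16 in this comparison and fell to -0.01 and -0.11 when libraries were scaled by median ratios or to equal totals. The median of the proteasome genes was 0.36, and stood above the median of all genes by 0.20, 0.18 and 0.17 under the 3 scalings. The split of calls moved to 6 higher and 2 lower with median ratios (18.3% and 16.3% of all genes) and to 5 and 4 with equal totals (14.6% and 19.7% of all genes). Deposited totals were 619752 and 628938 CPM in sham and 730630 to 818456 CPM in Luc 24 h libraries. As a share of these totals the 42 matching genes made up 0.446 and 0.585% in sham and 0.498 to 0.514% in Luc 24 h libraries, which overlap.

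Psmb10 had the largest difference of the set. It was at 122, 97.3 and 96.7 CPM in Luc 24 h libraries and at 25.5 and 19.2 CPM in sham, 4.70 ± 1.13-fold (SD, n = 3 and 2) and 2.19 on the log2 scale (SE 0.30, adjusted p = 1.1e-05). All 3 Luc libraries lay above both sham libraries, as they did for 37.4% of all genes. The Psmb10 call held when each library was left out. The inducible subunits Psmb8 and Psmb9 were both called, at 3.02 (SE 0.28, adjusted p = 1.1e-07) and 1.96 (SE 0.32, adjusted p = 8.8e-05).

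Psmd3, a lid subunit, was at 147, 133 and 157 CPM in Luc 24 h libraries and at 51.9 and 72.1 CPM in sham, a log2 fold change of 1.24 (SE 0.21, adjusted p = 1.8e-04). Psmd4 was at 121, 117 and 139 CPM against 66.4 and 64.1 CPM (0.93, SE 0.25, adjusted p = 0.0066), and Psmd11 at 98.0, 85.6 and 85.9 CPM against 54.4 and 52.9 CPM (0.73, SE 0.20, adjusted p = 0.0071). None of these overlapped with sham, and 37.4% of all genes stood higher than sham without overlap. The other higher calls were Psmb3 (0.90, SE 0.21, adjusted p = 0.0027), Psme2b (0.82, SE 0.23, adjusted p = 0.0079), Psmb6 (0.69, SE 0.26, adjusted p = 0.0412) and Psmb5 (0.66, SE 0.23, adjusted p = 0.0319). The Psme2 and Psme2b sum averaged 115 CPM in Luc hearts and 68.2 CPM in sham, a ratio of 1.69 ± 0.533 (SD, n = 3 and 2). The calls of Psmb5 and Psmb6 ended under both other scalings, and that of Psmd11 with equal totals. Psmb5 was also lost without any of 4 libraries (Luc A and D and either sham, adjusted p from 0.0681 to 0.136) and Psmb6 without any of the 5 compared (adjusted p from 0.0507 to 0.251). Without sham library 1 the calls of Psmd4 (adjusted p = 0.0531) and Psmd11 (adjusted p = 0.0538) were lost, and without sham library 2 that of Psme2b (adjusted p = 0.139).

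Psme4 was lower, at 129, 119 and 125 CPM against 259 and 228 CPM in sham, with a log2 fold change of -0.96 (SE 0.20, adjusted p = 9.4e-04). It was called in every fit that left out 1 library. In these Luc libraries 9 of 11 neutrophil and monocyte markers were called higher than sham (sum 293 to 1198 CPM against 6.42 to 28.99 CPM), while 2 of 10 cardiomyocyte markers were called higher and 1 lower (sum 64550 to 81349 CPM against 54469 to 55895 CPM), and their part in the result was not tested. The range of the remaining named genes ran from -0.36 (SE 0.23, adjusted p = 0.222) for Psma1 to 0.61 (SE 0.26, adjusted p = 0.079) for Psme2. Psme1 was at 0.47 (SE 0.26, adjusted p = 0.158), Psmd9 at 0.44 (SE 0.25, adjusted p = 0.174) and Psme3 at 0.27 (SE 0.14, adjusted p = 0.139). Psmd14 (0.11), Psmb7 (-0.03), Psmc3ip (-0.08), Psma4 (-0.13), Psmd5 (-0.17) and Psmd10 (-0.20) were not called either, and the signs of Psmd14 and Psme3 turned under another scaling. Psma1 was called lower with equal totals (-0.67, adjusted p = 0.0131) and without sham library 2 (-0.82, adjusted p = 0.0147), and Psme2 was called higher without sham library 1 (1.01, adjusted p = 0.0326). No alpha gene was called in this comparison, where all 7 were called in the uninjected hearts, but that difference between tables was not tested.

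**Figure D4:**
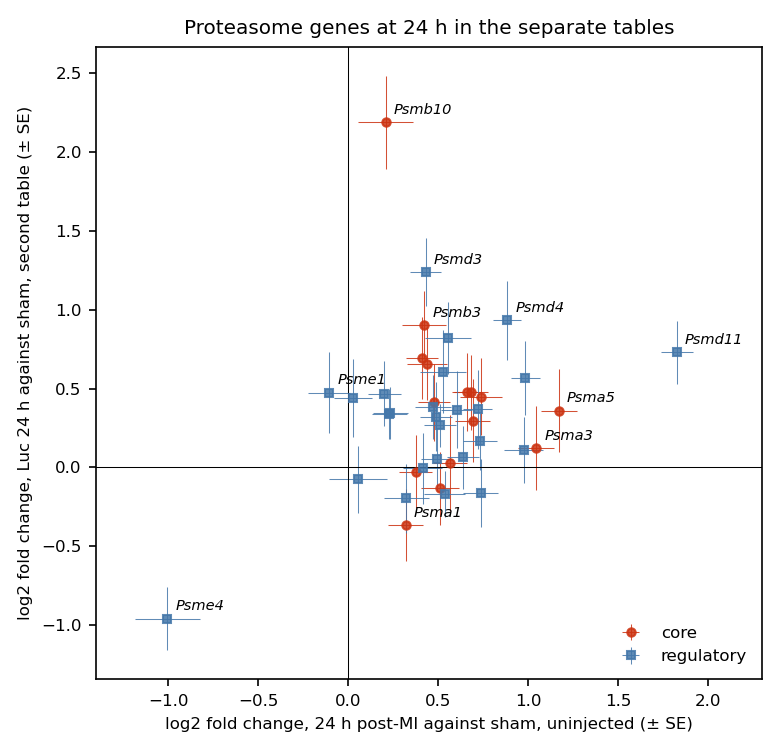
Log2 fold changes at 24 h of the 41 proteasome genes in uninjected hearts (horizontal axis) and in Luc hearts (vertical axis), each against the sham libraries of its own table, with standard errors as bars, core genes as circles and regulatory genes as squares. Psme4 is at -1.005 and -0.96, Psmd11 at 1.83 and 0.73, and Psmb10 at 0.21 and 2.19.

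The 24 h comparisons of the tables use separate libraries, and 32 of 41 genes (78%) had the same sign in both, against 66.2% of the 12259 genes tested in both tables. Across the 41 genes Pearson's r was 0.25 and Spearman's rho 0.11, given as a description, since genes of a library are not independent. The 7 genes called higher in both make up 7 of the 33 called higher in uninjected hearts (21.2%) and 7 of the 8 in Luc hearts (87.5%), where these shares over all genes were 44.1% and 61.7%. Nothing is read from the second share, since 33 of the 41 genes were called higher in uninjected hearts. Psme4 was lower in both.

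At 48 h, Luc hearts had 4 of 41 genes called against sham, 1 higher and 3 lower, where 30.1% of all genes were called, 13.7% higher and 16.4% lower. Psme1 was at 99.5, 61.6, 74.3 and 64.1 CPM against 148 and 94.5 CPM in sham, which overlapped, with a difference of -0.68 (SE 0.24, adjusted p = 0.0382). Psme3 was at -0.40 (SE 0.13, adjusted p = 0.0246) and Psme4 at -0.62 (SE 0.19, adjusted p = 0.0166), so the 3 lower genes were all activators. Psmd3 was at 124, 72.3, 106 and 77.0 CPM against 51.9 and 72.1 CPM, a difference of 0.59 (SE 0.20, adjusted p = 0.0324). Its high libraries were 1 and 3, which paired over all genes, and without them it was 0.28 (adjusted p = 0.340). None of the 4 calls held in every fit that left out 1 library. Without sham library 1 all 4 were lost and Psma3 (0.89, adjusted p = 0.0373) and Psmd14 (0.67, adjusted p = 0.0463) were called higher instead. Without sham library 2 there were 7 calls, Psmd3, Psme1 and Psme4 among them, and without Luc library 3 Psme3 alone was called. With the sham and Luc 48 h libraries fitted alone 0 were called, and with equal totals 8 were, 7 higher and 1 lower (19.9% and 10.2% of all genes). In these Luc libraries all 11 neutrophil and monocyte markers (sum 237 to 775 CPM against 6.42 to 28.99 CPM in sham) and all 4 leukocyte markers (97.9 to 151 CPM against 29.8 to 34.8 CPM) were called higher, and 2 of 10 cardiomyocyte markers were called lower (37407 to 50506 CPM against 54469 to 55895 CPM), and their part in the results was not tested. In Luc 48 h libraries Psmd11 was at 83.2 and 83.4 CPM in 1 and 3 and at 51.7 and 42.1 CPM in 2 and 4.

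**Figure D5:**
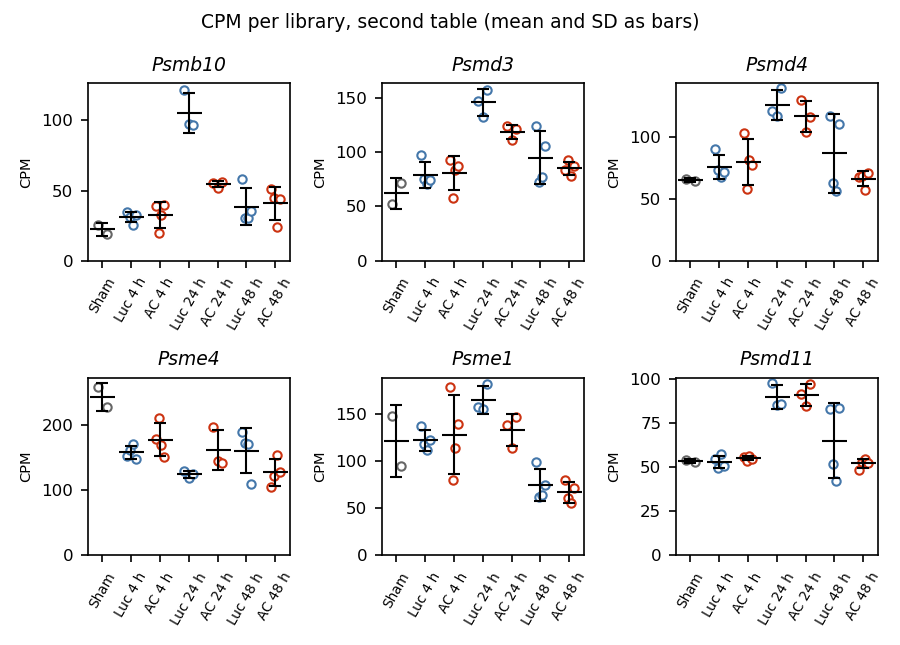
CPM (vertical axis, from 0) of 6 proteasome genes in each library of the second table (points), by group, with mean and SD as bars. Psmb10 is at 96.7 to 122 CPM in Luc 24 h libraries and at 52.2 to 56.2 CPM in AC 24 h libraries, and Psme4 is at 228 and 259 CPM in sham, above all other libraries.

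AC and Luc hearts of the same time were compared within a library set, and no proteasome gene was called by limma at 4, 24 or 48 h. Genes with an unadjusted p under 0.05 numbered 0, 1 and 2 of 41, against 1.04%, 4.77% and 30.3% of all genes, and 0.00796%, 0.00796% and 15.3% of all genes were called.

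The gene with an unadjusted p under 0.05 at 24 h was Psmb10. It was at 55.2, 52.2 and 56.2 CPM in AC hearts, all below the 96.7 to 122 CPM of Luc hearts, 0.518 ± 0.0727 of the Luc mean (SD, n = 3 and 3) and -0.93 on the log2 scale (SE 0.26, adjusted p = 0.824). AC libraries were all lower for 6.92% of all genes and all higher for 2.41%. Psme4 was at 197, 145 and 142 CPM in AC hearts, above all 3 Luc libraries, with a difference of 0.36 (SE 0.18, adjusted p = 0.991). The AC to Luc difference in Psmb10 changed by -0.96 from 4 to 24 h (SE 0.35, adjusted p = 0.9999), which was not called. Psmb8 and Psmb9 were not called at 24 h either, at -0.78 (SE 0.25, adjusted p = 0.824) and -0.56 (SE 0.29, adjusted p = 0.991).

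At 48 h Psmd10 differed by 0.48 (SE 0.17, adjusted p = 0.0555), Psmd5 by 0.31 (SE 0.11, adjusted p = 0.0668) and Psme4 by -0.32 (SE 0.15, adjusted p = 0.169) between AC and Luc. The median of all genes was 0.14 in this comparison and that of the proteasome genes -0.05, and the first fell to 0.0027 with median-ratio scaling. Other settings called these genes in part. Psme4 was called with median ratios (-0.47), Psmd10 (0.55) and Psmd5 (0.37) with equal totals, and all 3 with array weights, while 12.9%, 20% and 25.3% of all genes were called in these settings. The same groups were apart in cell markers, with cardiomyocyte sums of 28033 to 34511 CPM in AC and 37407 to 50506 CPM in Luc (2 of 10 called lower) and fibroblast sums of 1335 to 2092 CPM and 755 to 1170 CPM (4 of 6 called higher), and their part in these differences was not tested. Leaving out single libraries left 0 to 2 genes called.

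Promoter sequence was available for 35 of the 42 genes (RefSeq, GRCm38.p6, 250 bases before to 50 after the start). A proteasome gene was counted where any of its listed promoters matched, while the share over all promoters counts each promoter singly. A gene with several start sites has more chances to match, so the shares below are not like for like and no difference is read from them. The core of the antioxidant response element, TGACNNNGC on either strand, was found in 6 of 35 (17.1%) and in 12.4% of all 32851 promoters. The core of the interferon-stimulated response element, GAAANNGAA, was found in 6 of 35 (17.1%) and in 8.56% of all promoters. TTCNNNGAA was found in 1 of 35 (2.86%) against 8.30%, and CCAAT in 13 of 35 (37.1%) against 37.4%. The first motif was also found in Psmc6, Psmd12 and Psmd9. Matches are shown for the catalytic genes Psmb5 and Psmb6 (no match was listed for Psmb7) and for Psme4, called lower at 24 h in both tables. The first motif is in capitals (as its reverse complement for Psme4).
Psmb5, chr14:54618026-54618050, minus strand, positions -47 to -39: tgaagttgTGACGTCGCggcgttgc
Psmb6, chr11:70525340-70525364, plus strand, positions -9 to -1: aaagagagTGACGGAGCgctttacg
Psme4, chr11:30771760-30771784, plus strand, positions -7 to 2: ctgcggctGCAGCGTCAccagaaga
The second motif was also found in Psmb4, Psmc2 and Psmd9, and no link between motif and change is read from the genes shown. At 24 h Psmb4 and Psmc2 were called higher in uninjected hearts alone, and Psmd9 and Psme1 in neither table. The motif is shown in capitals, as its reverse complement, for an interferon-inducible activator gene (Psme1) and for 2 genes called higher in both tables (Psmd4 and Psmb3).
Psmd4, chr3:95042677-95042701, minus strand, positions -79 to -71: accaacctTTCCATTTCtgtggcgc
Psmb3, chr11:97703264-97703288, plus strand, positions -162 to -154: agtgacttTTCACTTTCcgctttcc
Psme1, chr14:55578496-55578520, plus strand, positions 11 to 19: gctgtgctTTCGCTTTCccttcccg
A match is a run of letters and says nothing of a bound factor. The Psmb10 window held neither motif.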

How the data were processed

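Poly(A) RNA of LV tissue was sequenced as single reads by the authors, who aligned it with STAR to mm10, quantified RefSeq genes by expectation maximization in Partek and normalized by TMM. Whether counting used strand is not given in the sources used here. The deposited values are CPM, and 1 was subtracted from those of the second table, whose samples the methods do not describe. Each table was analysed on its own. A gene was kept where its mean reached 1 CPM, log2(CPM + 1) was fitted over all groups of a table with limma 3.58.1 (R 4.3.3) with a mean-variance trend, and Benjamini-Hochberg adjustment was made over all genes kept (threshold 0.05), so fold changes of low genes are understated. The authors' own test was not run here. Limma was tested on simulated data. Other steps used Python 3.11, pandas 2.3.3, numpy 2.4.6 and matplotlib 3.10.9. Coordinates are those of the deposited files (mm10).

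Under 1 CPM, 81.5 to 83.7% of the first table's values were whole multiples of the lowest value (tolerance 0.02), too few to recover reads. Each library is taken as 1 mouse, which the labels do not state outright, so p-values measure the spread between these libraries. The members and lists were chosen with earlier results of these data known. Named genes were those with a role of their own (the catalytic and inducible subunits, activators, assembly factors, Psmd4, Psmd14, Psma8, Psmb11 and Psmc3ip) and the 3 highest and 3 lowest log2 fold changes of core and of regulatory genes at 4 h and 24 h post-MI and in Luc 24 h hearts, each against sham. Psmd1, Psmd2, Psmc3 and Psme2b, and any other gene named in a count of 5 or fewer, were chosen after they were seen. Alternatives were a pseudocount of 0.1, no filter, the compared groups alone, median-ratio and equal-total scaling, array weights, no trend, a replicate block and leaving out each library. Leaving out Luc 48 h libraries 1 and 3 together was chosen after seeing the data.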

Additional observations from a re-analysis of the deposited data

Results flagged for a closer look

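Among 130 checks, each of 1 named gene in 1 group of 4 libraries, 2 held a library far from the rest. Chance gives about 1 in 20, so 2 of 130 is no more than chance gives. Psmd14 was at 72.4 CPM in 24 h post-MI library H and at 56.0 to 57.7 CPM in the others, and Psma7 was at 75.4 CPM in Luc 4 h library 3 and at 103 to 108 CPM in the others. The changes from sham at 24 h and at 4 h post-MI, which share the sham libraries, differed by limma with Benjamini-Hochberg adjustment for 15 of the 26 named genes. As sham cancels, this is the comparison of 24 h with 4 h, in which 63.9% of all genes were called. On the log2 scale the 24 h change exceeded the 4 h change by 0.83 for Psma3, 0.28 for Psma4, 0.86 for Psma5, 0.28 for Psma6 and 0.40 for Psma7 among alpha genes. The calls of Psma4 and Psma6 were lost with median-ratio scaling, and that of Psma4 also with no trend. That of Psma4 was lost too without any of 6 libraries (24 h C and H, 4 h C, D and E, sham H). That of Psma6 was lost without 24 h library H (adjusted p = 0.0517) or 4 h library D (adjusted p = 0.0730), and that of Psma7 without 4 h library D (adjusted p = 0.0519). The 24 h change exceeded the 4 h change by 0.78 for Psmc4, 0.76 for Psmd4, 1.78 for Psmd11, 0.78 for Psmd14, 0.41 for Psmd3 and 0.55 for Psmd5. For the activators the difference was 0.50 for Psme2, 0.47 for Psme2b, 0.55 for Psme3 and -0.999 for Psme4.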

How the results depend on the processing

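Of single-gene values under alternatives that kept every library, 510 kept direction and side of the threshold, 19 gained a call, 22 lost one and 8 turned. Psme3 at 4 h turned with median ratios (0.0091) and the replicate block (0.021), Psmc3ip at 24 h with array weights (-0.013), and Psmd9 at 24 h with median ratios (-0.018) and the block (-0.055). In Luc 24 h hearts Psme3 turned with equal totals (-0.041) and Psmd14 with median ratios (-0.081) and equal totals (-0.19). Genes called at 4 h post-MI numbered 9 with array weights, where 20% of all genes were called. Luc 4 h calls numbered 1 with the groups alone and 1 without Luc 48 h libraries 1 and 3. Luc 48 h calls numbered 0 with the groups alone, 8 with equal totals (30.1% of all genes) and 2 with array weights (17.7% of all genes). AC to Luc calls at 48 h numbered 1 with median ratios, 2 with equal totals and 3 with array weights, where 12.9%, 20% and 25.3% of all genes were called. The core minus regulatory median was -0.042 between 24 and 4 h under the block and -0.027 between AC and Luc at 24 h with array weights. The cause of these shifts was not tested. Deviations of libraries with the same replicate label correlated from -0.26 to 0.34 between groups compared, and up to 0.55 between groups not compared. As deviations sum to 0 within these small groups, such values cannot exclude a pairing by label. The block left 29 calls at 24 h post-MI against sham and 24 against 4 h.

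Leaving out 1 library, called genes ranged from 0 to 1 in Luc 4 h, 1 to 7 in Luc 48 h and 0 to 2 between AC and Luc at 48 h. The core minus regulatory median ranged from 0.026 to 0.30 in Luc 4 h, from -0.041 to 0.22 in Luc 24 h, and between AC and Luc from -0.029 to 0.034 at 24 h and from -0.14 to 0.049 at 48 h. Estimates that turned ranged from -0.16 to 0.033 for Psmb10 at 4 h, -0.11 to 0.15 for Psmc3ip and -0.025 to 0.090 for Psmd9 at 24 h. In Luc 24 h hearts they ranged from -0.23 to 0.082 for Psmc3ip, -0.28 to 0.23 for Psmb7, -0.26 to 0.48 for Psmd14, -0.36 to 0.022 for Psmd5, -0.46 to 0.071 for Psmd10, -0.82 to 0.089 for Psma1 and -0.49 to 0.23 for Psma4. The depth of the second table is unknown, so counting error there could not be given.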
